A study of Mus musculus with 6 samples.

Results

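The 8 genes described here, Tnmd, Scx, Mkx, Thbs4, Comp, Chad, Cilp and Cilp2, are markers of tendon and of the myotendinous junction, where muscle fibres attach to tendon. They were chosen by name, and each was matched through the RefSeq accession of its probe on a single-colour Agilent array. All 8 had a probe, out of 36717 genes or unnamed transcripts on the array, and each had 1 probe. Total RNA came from the gastrocnemius, a calf muscle that ends in the Achilles tendon, of untreated male C57BL/6J mice. The young group held 3 mice aged 13 weeks and the aged group 3 mice aged 26 months, with an array for each mouse. How much tendon was taken with each muscle is not given in the sources used here, and in whole tissue fewer cells of a type and less RNA per cell cannot be told apart.

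Tendon is built by tenocytes, fibroblasts that lay down parallel fibrils of type I collagen together with small proteoglycans and glycoproteins that govern fibril assembly. The transcription factors Scx and Mkx set the tenocyte programme, and Tnmd, a membrane glycoprotein, is among its best known products. At the myotendinous junction the muscle membrane is folded and anchored to the tendon matrix, and thrombospondins such as Thbs4 belong to the matrix laid down there.

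Promoter sequences are shown for Tnmd, Chad, Cilp2 and Cilp because, of the genes with an entry in the promoter table, Cilp2 and Chad differed most between the ages, Cilp alone was higher in aged mice, and Tnmd is the best known tendon product. Each is the stretch of 250 bases before the RefSeq start of the gene in GRCm38.p6, written 5′ to 3′ on the strand of the gene. Capitals mark the E-box letters CANNTG, bound by basic helix-loop-helix factors such as Scx, and the letters TATAAA of a TATA box. The E-box reads the same on both strands, the TATA box was searched on both, and no match of one overlaps a match of the other in these windows. The windows are chrX:133850758-133851007 (plus strand) for Tnmd, chr11:94564797-94565046 (plus) for Chad, chr8:69887393-69887642 (minus) for Cilp2 and chr9:65264930-65265179 (plus) for Cilp.
Tnmd: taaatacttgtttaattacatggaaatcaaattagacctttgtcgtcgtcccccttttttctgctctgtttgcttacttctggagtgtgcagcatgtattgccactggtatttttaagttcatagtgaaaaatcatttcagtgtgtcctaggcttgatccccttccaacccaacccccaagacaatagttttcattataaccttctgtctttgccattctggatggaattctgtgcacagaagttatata
Chad: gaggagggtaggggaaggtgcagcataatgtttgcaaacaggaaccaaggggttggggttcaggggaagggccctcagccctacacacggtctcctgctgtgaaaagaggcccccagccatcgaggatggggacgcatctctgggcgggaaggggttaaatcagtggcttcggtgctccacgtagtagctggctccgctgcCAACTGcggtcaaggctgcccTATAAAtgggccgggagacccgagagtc
Cilp2: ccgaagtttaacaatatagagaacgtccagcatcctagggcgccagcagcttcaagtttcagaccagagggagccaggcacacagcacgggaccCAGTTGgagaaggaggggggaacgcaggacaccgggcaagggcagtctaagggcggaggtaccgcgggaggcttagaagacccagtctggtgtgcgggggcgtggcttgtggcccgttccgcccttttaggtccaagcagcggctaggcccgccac
Cilp: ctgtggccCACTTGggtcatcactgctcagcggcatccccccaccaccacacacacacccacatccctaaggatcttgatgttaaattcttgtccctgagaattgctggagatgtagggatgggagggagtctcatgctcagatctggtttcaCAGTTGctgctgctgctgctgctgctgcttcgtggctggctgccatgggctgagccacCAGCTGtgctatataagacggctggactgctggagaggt

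The E-box was found 0 times in the window of Tnmd, 1 time in those of Chad and Cilp2 and 3 times in that of Cilp. The window of Thbs4 (chr13:92794819-92795068, minus strand) held 1. Of 32851 promoter windows of the same length, 66.2% held the E-box, so most promoters carry it, and 12.4% held the TATA box, which was present in the window of Chad. Comp, Scx and Mkx had no entry in the promoter table. A match is a description of these letters.

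Values are log2 of the processed signal of a probe over the 75th percentile of its array, so that 0 is the 75th percentile and 1 unit is a doubling. Levels of different genes cannot be compared on this scale, because probes differ in brightness. The 75th percentile was 209.3 to 299.8 for young and 270.4 to 310.5 for aged mice, and 48.7% to 53.8% of the probes were well above background, the scanner software's call of a measurable spot. Of the 8 genes, 5 were well above background on all 6 arrays, and all 8 passed the filter of 3 arrays. That filter keeps a gene that is measurable in 1 group alone, so the number that passed supports nothing. Myofibre markers were bright on every array (Acta1, skeletal actin, 9.14 to 10.07). No probe was saturated. The test was limma over the 20900 genes that passed, with p-values adjusted by Benjamini-Hochberg.

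Cilp and Scx were higher and Tnmd, Mkx, Thbs4, Comp, Chad and Cilp2 were lower in aged than in young mice. For all 8 genes the 3 aged mice lay outside the range of the 3 young mice. The fitted differences had a median of -1.50, against -0.06 over all genes tested, and that of Cilp2 was taken against aged signals that were not well above background. None of the 8 reached an adjusted p under 0.05, and all 8 had an unadjusted p under 0.05 in limma. Cilp2 passed the filter through the young mice alone, so its p and its lack of overlap are no support. Across all genes tested, 0.254% passed the adjusted threshold (0.0574% lower and 0.196% higher with age). Unadjusted p was under 0.05 for 14.4% of them (8.36% lower and 6.07% higher), and 21.8% did not overlap between the groups (13.9% lower and 7.92% higher). The 6 genes that were lower had values of -0.89 or below, and 95% of all genes tested lay between -0.97 and 1.18.

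**Figure D1:**
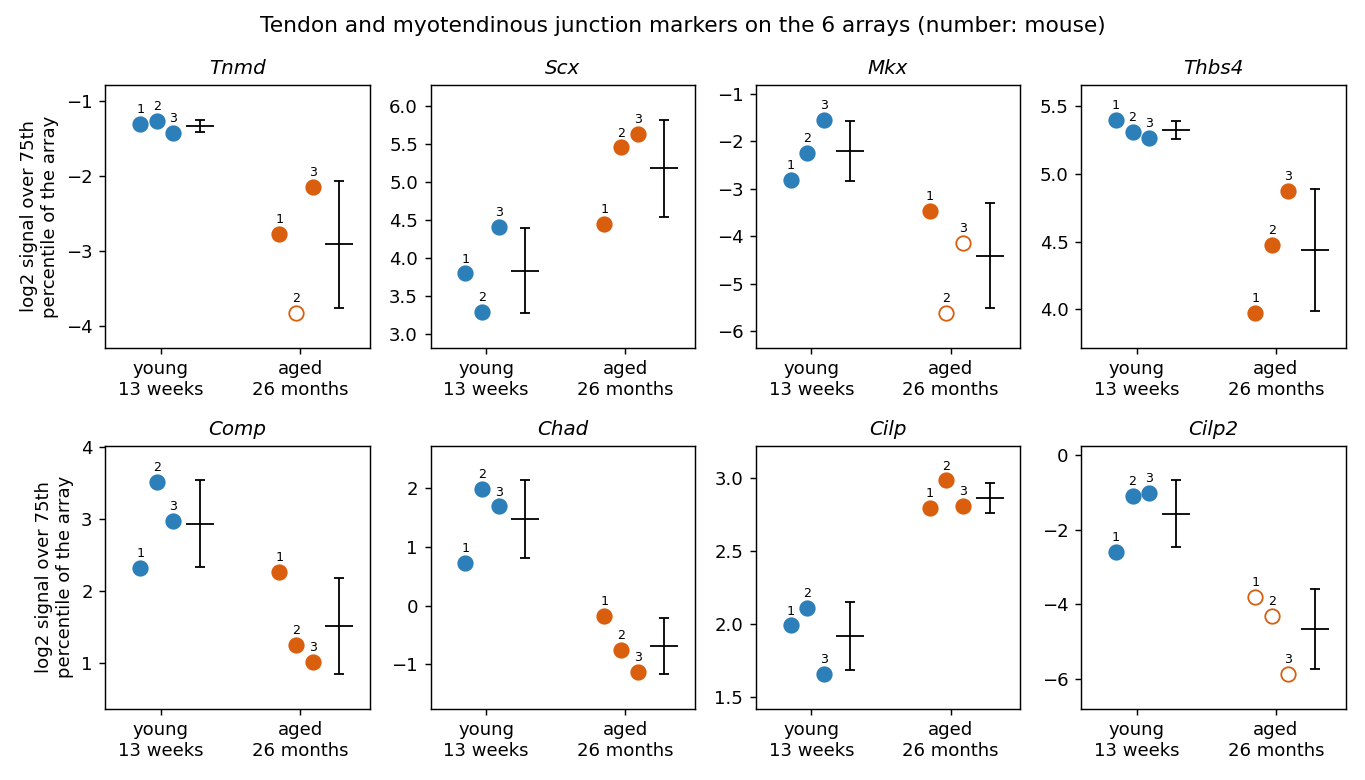
Signal of each of the 8 genes on the 6 arrays, as log2 over the 75th percentile of the array (vertical axis, its own scale in each panel), with young mice in blue and aged mice in orange. Each point is a mouse, with its number beside it, an open circle is a signal not well above background, and the bar is the mean ± SD (n = 3). In every panel the aged mice lie on 1 side of the young mice, above them for Scx and Cilp and below them for the other 6 genes.

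Scx encodes scleraxis, the basic helix-loop-helix factor that marks tendon progenitors. The young mice, in the order of their numbers, had log2 signals of 3.80, 3.29 and 4.40, and the aged mice 4.45, 5.45 and 5.63. Aged mice 2 and 3 stood more than 1 unit above every young mouse, while aged mouse 1 was only 0.05 above young mouse 3. The means of young and aged mice were 3.83 ± 0.56 and 5.18 ± 0.64 (SD, n = 3), a difference of 1.35 (SE 0.40, 95% confidence interval 0.40 to 2.30), or 2.54-fold. The adjusted p in limma was 0.229. In the RefSeq annotation Scx overlaps Bop1, a ribosome assembly gene, whose own probe differed by 0.07 between the groups (adjusted p in limma 0.865).

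Mkx encodes Mohawk, a homeobox factor needed for tendon collagen production. Its signal was -2.81, -2.25 and -1.55 in young mice and -3.46, -5.62 and -4.15 in aged mice. It was dim throughout: the signals of all 3 young mice but only that of aged mouse 1 were well above background. The means were -2.20 ± 0.63 and -4.41 ± 1.1 (SD, n = 3), and the difference was -2.21 (SE 0.58, 95% confidence interval -3.58 to -0.83, adjusted p in limma 0.190). With normexp background correction, which adds an offset to dim signals, the difference was -0.79. The 2 transcription factors thus differed in opposite directions, Scx being higher and Mkx lower in aged mice.

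Tnmd encodes tenomodulin, the membrane glycoprotein of mature tenocytes. Its probe was printed in 10 spots, so the error within an array could be seen. The signal was -1.31, -1.27 and -1.42 in young mice, with an SD among spots of 0.05 to 0.17. It was -2.77, -3.83 and -2.15 in aged mice, with an SD among spots of 0.19 to 0.37. The young mice lay close together, and the aged mice were lower. In aged mouse 2 only 3 of the 10 spots were well above background, and its signal as a whole was not. The means were -1.33 ± 0.08 and -2.92 ± 0.85 (SD, n = 3). The difference was -1.58 (SE 0.40, 95% confidence interval -2.54 to -0.62, adjusted p in limma 0.183), with 1 of the 3 aged signals not well above background. It was -0.77 with normexp background correction.

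Thbs4 and Comp are the pentameric thrombospondins of tendon. Thbs4, which is concentrated at the myotendinous junction, had signals of 5.40, 5.31 and 5.27 in young mice and 3.97, 4.47 and 4.87 in aged mice. The young mice were almost level, and the lowest of them was 0.40 above the highest aged mouse. The means were 5.32 ± 0.07 and 4.44 ± 0.45 (SD, n = 3), with a difference of -0.89 (SE 0.24, 95% confidence interval -1.47 to -0.30), a signal in aged mice 0.541 times that in young mice, and an adjusted p in limma of 0.205.

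Comp, cartilage oligomeric matrix protein, binds collagen fibrils in tendon and cartilage. Its signal was 2.32, 3.51 and 2.97 in young mice and 2.27, 1.26 and 1.02 in aged mice. Young mouse 1 and aged mouse 1 were 0.05 apart, so the groups were separated by less than the spread within either. The means were 2.94 ± 0.60 and 1.51 ± 0.66 (SD, n = 3), and the difference was -1.42 (SE 0.42, 95% confidence interval -2.42 to -0.43, 0.373-fold), with an adjusted p in limma of 0.228. The other 3 thrombospondins tested, Thbs1, Thbs2 and Thbs3, had a median difference of -0.39, and none reached an adjusted p under 0.05 in limma. The direction of this median was not stable, since it was 0.44 with the slide row as a block and -0.04 without aged mouse 2. Thbs3 had the largest negative difference of them, -0.46 (adjusted p in limma 0.344).

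Chad encodes chondroadherin, a leucine-rich repeat protein that links collagen to cells in cartilage and tendon. Its signal was 0.72, 1.995 and 1.69 in young mice and -0.18, -0.76 and -1.12 in aged mice, well above background on all 6 arrays. Every aged mouse was below the 75th percentile of its array and every young mouse above it, and the nearest mice of the groups were 0.90 apart. The means were 1.47 ± 0.66 and -0.69 ± 0.48 (SD, n = 3). The difference was -2.16 (SE 0.39, 95% confidence interval -3.08 to -1.24), which is 0.224 times the young signal. Its adjusted p in limma was 0.105, the lowest of the 8 genes, and it was 0.049 when arrays were scaled to their median, with a difference of -2.30. Acsf2, which overlaps Chad in the RefSeq annotation, differed by -0.13 (adjusted p in limma 0.721). Chad and Comp ranked the 6 mice in the same order, from young mouse 2 through young mice 3 and 1 to aged mice 1, 2 and 3.

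Cilp and Cilp2 are paralogues that encode secreted glycoproteins first known from the middle layer of cartilage, and Cilp is also made by fibroblasts of muscle and heart. Cilp had signals of 1.99, 2.11 and 1.66 in young mice and 2.80, 2.98 and 2.81 in aged mice. The aged mice lay close together, and the lowest of them was 0.69 above the highest young mouse. The means were 1.92 ± 0.23 and 2.86 ± 0.10 (SD, n = 3), with a difference of 0.94 (SE 0.18, 95% confidence interval 0.52 to 1.37), or 1.92-fold, and an adjusted p in limma of 0.124.

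Cilp2 had signals of -2.59, -1.11 and -1.02 in young mice and -3.80, -4.31 and -5.86 in aged mice. It was well above background in all 3 young mice and in none of the 3 aged mice, so it passed the filter through the young mice alone. Aged signals below the lowest measurable signal of their array were raised to it, and the young signal was then 5.01-fold higher. That level is not a strict limit. Aged mouse 1, at -3.80, lay above the level of its array (-3.87) and was still not called well above background. The adjusted p in limma was 0.138, and it is no support, because the filter kept Cilp2 for its young signals. The size of the fitted difference rests on the treatment of dim signals, and it was -3.08 in the reported fit and -0.99 with normexp background correction. Among the 8 genes the paralogues thus differed in opposite directions, as the transcription factors did.

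**Figure D2:**
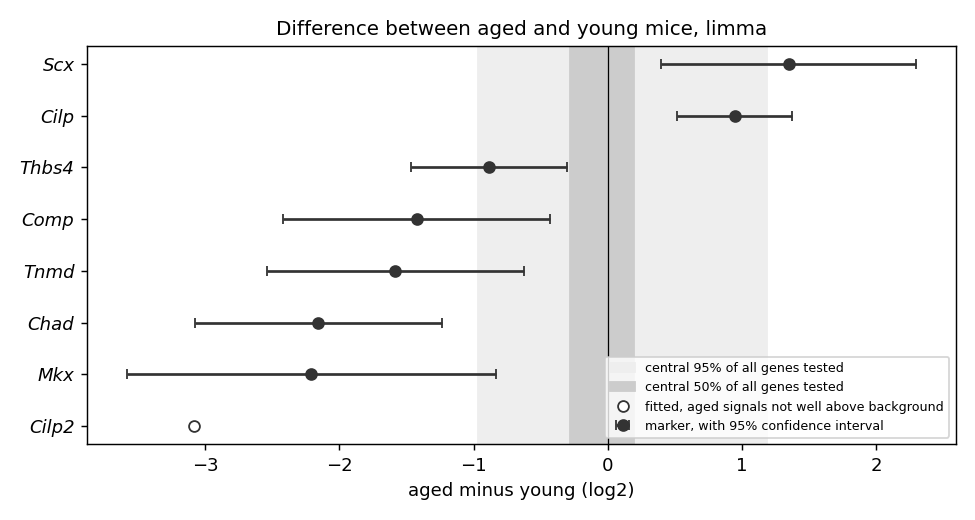
Difference between aged and young mice in each of the 8 genes (horizontal axis, aged minus young, log2), as points with the 95% confidence interval from limma (n = 3 mice in each group), and as an open circle with no interval for Cilp2, whose aged signals were not well above background. Shading shows the range that holds the central 50% (-0.28 to 0.19) and 95% (-0.97 to 1.18) of all 20900 genes tested. Scx, Comp, Tnmd, Chad, Mkx and Cilp2 lie outside the wider band and Thbs4 and Cilp inside it, and no interval crosses 0.

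The 6 lower genes did not rank the aged mice alike. Aged mouse 2 had the lowest signal of Tnmd and Mkx, aged mouse 1 that of Thbs4, and aged mouse 3 those of Comp, Chad and Cilp2. The lowest signals of Tnmd, Mkx and Cilp2 were not well above background, so only Thbs4, Comp and Chad rank the aged mice on measurable signals. By mouse number, the median deviation of the 8 genes from the mean of young mice was -1.31, -1.95 and -1.36 for the aged group and -0.32, 0.13 and 0.13 for the young group. Young mouse 1 had the lowest signal among young mice for Mkx, Comp, Chad and Cilp2.

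The arrays lay in 2 rows of 1 slide, with the young mice and aged mouse 1 in row 1 and aged mice 2 and 3 in row 2. Within row 1, aged mouse 1 differed from the mean of young mice in the same direction as the whole group for all 8 genes, and lay outside the range of the young mice for each. The difference within the row was -1.44 for Tnmd, -1.26 for Mkx, -1.35 for Thbs4, -1.65 for Chad, -2.23 for Cilp2 and 0.88 for Cilp. It was 0.62 for Scx and -0.67 for Comp, close to the SD within their groups (0.56 to 0.66). Fitted with the row as a block, which gives the same differences, the 8 genes had adjusted p in limma of 0.141 to 0.585. Aged mice 2 and 3 differed from young mice by 1.71 for Scx and -1.80 for Comp, and the part of the row in this gap was not tested.

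Other genes of tendon were read from lists. Over all genes tested, 56.9% had a lower and 43.1% a higher mean in aged mice, the shares to set beside the counts of each list. Of 13 tested genes of the tendon proteoglycan and matrix list, all 13 had a lower mean in aged mice, with a median of -0.57. In this list 1 gene fell past the adjusted threshold (0.0574% of all genes tested), and 6 were lower without overlap between the groups (13.9% of all). The gene that fell was Kera, keratocan, a small proteoglycan that spaces collagen fibrils, at 1.05, 1.47 and 2.27 in young and -1.89, -1.49 and -1.37 in aged mice (difference -3.18, adjusted p in limma 0.026). Aspn, asporin, a related proteoglycan, had the largest difference of the others (-3.22, adjusted p in limma 0.290). Its signal was -0.61 in aged mouse 1 and -3.75 and -5.71 in aged mice 2 and 3, and only that of aged mouse 1 was well above background. The fitted difference was -1.48 with normexp, -0.48 with the slide row as a block and -4.60 without aged mouse 1 (adjusted p in limma 0.195, 0.792 and 0.034), the last resting on aged signals not well above background.

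Of the 11 tendon collagens, 9 had a lower and 2 a higher mean in aged mice, and the median was -0.72. In this list 1 gene fell past the threshold (0.0574% of all genes tested). Col11a1, a chain that nucleates fibrils, fell (adjusted p in limma 0.035). It was well above background in no aged mouse, having passed the filter through the young mice alone. Set against the lowest measurable signal of each aged array, which is not a strict limit, it was 1.46-fold higher in young mice. The call was lost with normexp (-0.47, adjusted p in limma 0.209) and with a mean-variance trend (adjusted p in limma 0.069). Col1a1, the main chain of tendon collagen, was at 4.10, 3.98 and 4.55 in young and 1.31, 3.03 and 3.59 in aged mice, a difference of -1.56 (adjusted p in limma 0.291). Without aged mouse 1 the median of the list was -0.02. Col14a1 had the largest positive difference, 1.75 (adjusted p in limma 0.390), while its second probe differed by -0.13.

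Of the 12 regulators of tendon formation tested, 8 had a higher and 4 a lower mean in aged mice, and the median was 0.29. The 2 that rose past the threshold (0.196% of all genes tested did) were growth factors of the BMP family that act in tendon and joint formation. Gdf5 was at -3.46, -3.16 and -3.20 in young and 1.18, 1.74 and 1.62 in aged mice, a rise of 4.78 (adjusted p in limma 0.00189). The rise of Gdf5 was 3.16 with normexp (adjusted p in limma 0.00145). Its second probe, well above background in no young mouse, differed by 3.68. Gdf7, well above background in 2 young and 3 aged mice, rose by 2.12 (adjusted p in limma 0.021), or by 0.88 with normexp (adjusted p in limma 0.045). Of the rest, Egr1, an immediate early factor, had the largest positive difference (1.39, adjusted p in limma 0.495), with aged mouse 3 at 3.999 and the other mice between 0.30 and 1.07. Mstn, myostatin, had the largest negative difference (-1.20, adjusted p in limma 0.138).

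On the muscle side of the myotendinous junction, 17 genes were tested. Their median was -0.15, with 7 higher and 10 lower in mean, against 56.9% lower over all genes tested. Col22a1, a collagen of tissue junctions and the best known marker of the muscle side, was at 3.82, 3.78 and 3.67 in young and 2.24, 2.44 and 2.27 in aged mice, and it fell by 1.44 on the log2 scale (adjusted p in limma 0.026). Ankrd1, a stretch-responsive muscle protein, had the largest positive difference, 3.42 (adjusted p in limma 0.139). Lamc1, a laminin chain, had the largest negative difference of the genes not called, -0.73 (adjusted p in limma 0.15). Gdf5 kept an adjusted p under 0.05 with any of the 6 mice left out. Kera, Col11a1, Gdf7 and Col22a1 kept it without aged mouse 1 but not without any of the other 5, where it reached 0.111, 0.135, 0.111 and 0.131. With the slide row as a block these 4 calls were also lost (adjusted p in limma 0.077, 0.100, 0.071 and 0.089), and that of Gdf5 was kept (adjusted p in limma 0.029). With no filter on dim probes the 4 were lost as well (adjusted p in limma 0.090, 0.101, 0.079 and 0.090), and that of Gdf5 was kept (0.013). Col22a1 was also lost with median scaling (adjusted p in limma 0.060).

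**Figure D3:**
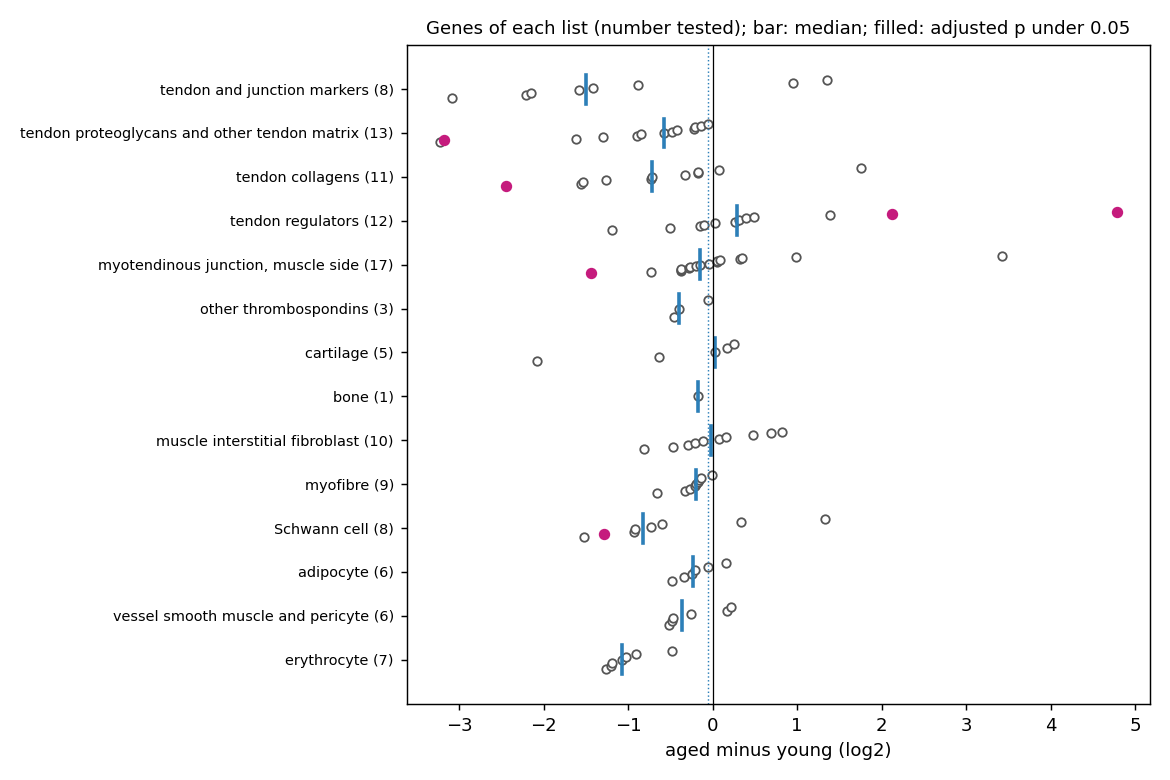
Difference between aged and young mice (horizontal axis, aged minus young, log2) for every tested gene of each list, with the number tested in parentheses. Each circle is a gene, filled where the adjusted p was under 0.05, the vertical bar is the median of the list, and the dotted line is the median of all genes tested (-0.06). The 8 tendon and junction markers have a median of -1.50, the lowest of these lists in this fit but not with normexp, the stricter filter or the slide row as a block, and no filled circle.

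Markers of other cells that share genes with tendon were read on the same arrays, where 56.9% of all genes tested had a lower mean in aged mice. Of 13 cartilage markers 5 were tested, and the other 8, which include Col2a1, the defining collagen of cartilage, were well above background on fewer than 3 arrays. The tested 5 had a median of 0.02, with 3 higher and 2 lower in mean, and a summed signal, which the brightest probes of a list weigh most in, of 0.90 to 1.26 times the 75th percentile in young and 0.80 to 1.09 times in aged mice. Col9a1, a cartilage collagen, had the largest negative difference (-2.09, adjusted p in limma 0.067, and -0.82 with normexp), by a probe that was well above background in no aged mouse. Its other probe was so in 1 aged mouse. Col11a2 had the largest positive one, 0.25. Of 7 bone markers only Alpl was tested (-0.18, adjusted p in limma 0.889). Of 10 genes listed as fibroblast markers of muscle, not all of them particular to these cells, 5 were higher and 5 lower in mean. They had a median of -0.02 and a summed signal of 135 to 164 times in young and 123 to 206 times in aged mice. They ranged from Thy1 at -0.82 to Dpt at 0.81, and none passed the adjusted threshold in limma.

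The 9 myofibre markers tested had a lower mean in aged mice in every case but a median of only -0.20, and a summed signal of 5669 to 7001 times in young and 4750 to 6166 times in aged mice. The largest difference of those tested was that of Myh7, slow myosin (-0.66, adjusted p in limma 0.351). Of the 10 listed, Tnni2 was bright but not tested, because it lacked a signal for aged mouse 3. On the arrays left it differed by -1.42. Schwann cell markers had a median of -0.83, with 6 of 8 lower, 2 higher and a summed signal of 24.6 to 44.5 times in young and 24.6 to 41.6 times in aged mice. Prx, periaxin, fell by 1.29 on the log2 scale (adjusted p in limma 0.043), a call kept without aged mouse 1 but not without any of the other 5 (up to 0.203) or with the slide row as a block (0.149). The call of Prx was also lost with no filter on dim probes (adjusted p in limma 0.127). Mbp, myelin basic protein, had the largest positive difference (1.33, adjusted p in limma 0.053). Of its 3 probes, the others differed by -0.03 and 1.12, and the mean of all probes by 0.81 (adjusted p in limma 0.263). Erythrocyte markers had a median of -1.08, with all 7 tested lower in mean and a summed signal of 643 to 936 times in young and 292 to 466 times in aged mice, and Alas2 had the largest difference (-1.26, adjusted p in limma 0.271). Adipocyte markers had a median of -0.23, from Plin1 at -0.48 to Retn at 0.16. Vessel wall markers had a median of -0.37, from Myh11 at -0.52 to Acta2 at 0.22. The Schwann cell and erythrocyte lists thus had negative medians, as the 8 genes had. By number, the aged mice had median deviations of -0.82, -0.69 and -0.87 for Schwann cell markers. They had -0.77, -0.76 and -1.82 for erythrocyte markers, and -1.31, -1.95 and -1.36 for the 8 genes. The part of these cells in the result was not tested.

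For each of the 8 genes, the 3 genes nearest to it over the 6 mice were taken from 12684 named genes well above background on all arrays, by the root mean square difference of log2 signals after each gene was centred on its mean. For Comp they were Slc40a1 (0.16), Trp53i11 (0.19) and Itgbl1 (0.24), and for Chad they were Slc40a1 (0.37), Gm525 (0.40) and Comp itself (0.40). Cilp2 was nearest to Zfp976 (0.62), Chad (0.63) and Dbp (0.68). Chad thus appeared beside both Comp and Cilp2. The distances of Cilp2, and in part those of Tnmd and Mkx, rest on aged signals not well above background. Tnmd was nearest to Ptprf (0.35), Aatk (0.39) and Spc25 (0.39), and Mkx to Ecrg4 (0.32), Aatk (0.54) and Cpt1b (0.57). Thbs4 was nearest to Cdk19 (0.15), Creb1 (0.17) and As3mt (0.17). The genes that were higher had other neighbours. Scx was nearest to Ppil1 (0.16), Fam241b (0.20) and Ppp1r27 (0.23), and Cilp to Adam8 (0.12), C1qb (0.13) and C3 (0.15). Likeness over 6 arrays is a description, since the points share the groups and the slide.

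**Figure D4:**
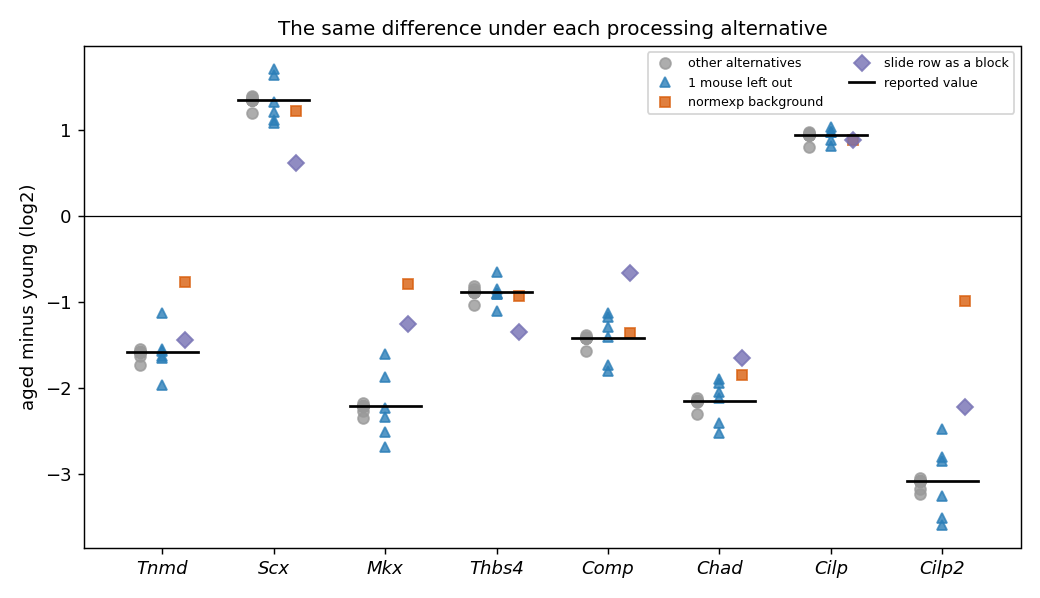
Difference between aged and young mice in each of the 8 genes (vertical axis, aged minus young, log2) under every processing alternative, with the reported value as a black line. Triangles leave out 1 mouse, the square is normexp background correction, the diamond has the slide row as a block, and grey circles are the other alternatives. Every point of a gene lies on the same side of 0, which only normexp and the alternative scalings could have changed. The dim genes Tnmd, Mkx and Cilp2 lie closest to 0 under normexp (-0.77, -0.79 and -0.99).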

How the data were processed

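Gene expression was measured on Cy3-labelled single-colour Agilent arrays. The authors deposited Feature Extraction files, in which the processed signal is an intensity on a linear scale, background-subtracted and detrended within each array but not scaled between arrays. Per the file headers the software was version 11.0.1.1, while the submitters' processing notes name 9.5. The series matrix holds the same intensities. The methods name no normalization or test for the arrays. Here flagged spots were left out, spots of a probe were averaged, and the 75th percentile over probes was subtracted from log2 signals. Probes well above background on at least 3 of 6 arrays were kept, with the brightest kept probe for each gene, and probes were named through RefSeq accessions (GRCm38.p6), which named 28331 of 55681 probes. Probe coordinates are left out because the design of the array used a different build. The comparison of the ages used limma 3.58.1 (lmFit and eBayes, R 4.3.3), with no covariate and a threshold of 0.05 after Benjamini-Hochberg adjustment. The fit was tested on simulated data. The 8 genes and the gene lists were chosen with earlier results of these data known. The genes named are the 8 markers, the genes of each list past the threshold, the largest other rise and fall in each list, and the 3 nearest genes of each marker, except 1 gene of a list that is not reported here. As alternatives, background was corrected by normexp from the median signal of each spot (offset 50), arrays were scaled by quantiles, by their median or by the 75th percentile of detected probes alone, and the others were 2 filters, the mean of all probes or each probe on its own, the series matrix, a variance trend, slide row and replicate number as blocks, and leaving out each mouse. Precision is limited by the number of arrays.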

Additional observations from a re-analysis of the deposited data

How the results depend on the processing

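All 8 genes kept their direction under every alternative run for them (17 for Tnmd, Mkx and Cilp2, which the filter for probes well above background on all 6 arrays removes, and 18 for the others). Most of these could not change it. With 1 probe for each gene, the filters, probe choices and series matrix returned the reported differences, and so did the variance trend and replicate block. Leaving out a mouse, or the row block, could not change a sign, because no aged mouse lay within the young range. Only normexp and the alternative scalings could have done so. With 1 mouse left out, 0 of the 8 passed the adjusted threshold in limma, and 1 of the 8, Chad, passed it with median scaling, which shifted the median of all genes to -0.21. The median over the 8 genes was -0.86 with normexp and -0.89 for the 5 genes left by the stricter filter, and -1.73 to -1.21 with 1 mouse left out. The number of genes past the threshold among all genes tested was 53. It was 8 with no filter, 35 with the filter for all 6 arrays, 5 with the replicate block and 1 to 199 with 1 mouse left out (199 without aged mouse 1, 1 without aged mouse 3, and 8 or 9 without any other). The replicate numbers share only a number (correlations of deviations -0.06, -0.27 and 0.03 for numbers 1 to 3, and no mouse correlated best with its own number). With the replicate number as a block, the 8 genes had adjusted p of 0.219 to 0.389. Some list medians changed sign: cartilage, 0.02 as reported, was -0.017 with normexp and -0.13 with median scaling, fibroblast (-0.02) was 0.013 with the 75th percentile over detected probes, and other thrombospondins (-0.39) were 0.44 and adipocyte (-0.23) 0.13 with the slide row as a block. With 1 mouse left out, cartilage ranged from -0.23 to 0.15, bone from -0.56 to 0.29, fibroblast from -0.14 to 0.19 and the muscle side of the junction from -0.17 to 0.00068. Single genes that changed sign were Col11a2 (-0.017 with normexp, -0.13 to 0.56 with 1 mouse left out), Col14a1 (-0.13 for the probe left by the stricter filter), Egr1 (-0.046) and Acta2 (-0.023) with the slide row as a block, and Alpl (-0.56 to 0.29 with 1 mouse left out). The cause of these changes was not tested. Dim signals limit Mkx, Tnmd and Cilp2 in aged mice.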
